A study of Mus musculus with 2 samples.

Results

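Broad promoter regions are stretches of at least 1200 bp of accessible chromatin whose strongest point lies at the start of a protein-coding gene. In haematopoietic stem cells 1511 of them were found among 11226 promoter regions (13.5%) and 31532 accessible regions in all. They were chosen by width. Overlapping peaks of the series' conservative peak list were merged, and the summit was that of the peak of highest signal. A region was kept where its summit lay within 1 kb of any coding start site of transcription (TSS). Coding TSSs are those of protein-coding transcripts of protein-coding genes, so other transcripts of these genes did not count. Width, summits and signal come from the same peak calls, so they are described here and support nothing. The other 9715 promoter regions, called narrower below, served for comparison. Outside promoters 264 of 20306 regions (1.3%) were that wide.

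The assay, ATAC-seq, uses a transposase that cuts and tags DNA free of nucleosomes or other proteins. There is 1 group, primary haematopoietic stem cells from C57BL/6J adults of 5 to 6 weeks, with no treatment or genetic change named, and it was sequenced as 2 libraries that the labels call biological replicates 1 and 2. The donor label is the same on both, sex was not collected, and the labels do not say which surface markers defined the cells or whether animals were pooled. A starting quantity is given for replicate 2 alone, 50000 cells.

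At an active promoter, nucleosomes are displaced around the TSS, and transcription factors and RNA polymerase occupy the gap. In mammals many such promoters lie in CpG islands, GC-rich stretches whose CpG dinucleotides are kept free of methylation, and they are typical of genes that every cell uses. A promoter that starts genes on both strands, called bidirectional or divergent, exposes DNA on both sides. A long accessible interval can hold several separate maxima, each reported by the peak caller as its own summit.

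The sequences below, all on the plus strand of mm10, come from members picked for an extreme value, a gene list or a word. They do not stand for a typical member. Those of Stat6 come first because this member had the most summits, 9. Stat6 encodes a transcription factor activated by interleukin-4 and interleukin-13. The 61 bases around a summit are given where they touched no annotated exon, which held for 7 of the 9. Each is given with its distance from the TSS, and capitals mark CpG dinucleotides. These windows held between 0 and 3 CpGs each. The strongest summit, at -30 bp, is not among the 7, and the 201 bp around it held 10 CpGs.
Stat6 summit at -1038 bp (chr10:127641918-127641978): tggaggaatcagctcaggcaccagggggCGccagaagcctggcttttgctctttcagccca
Stat6 summit at -801 bp (chr10:127642155-127642215): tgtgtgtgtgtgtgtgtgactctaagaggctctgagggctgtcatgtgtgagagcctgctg
Stat6 summit at -608 bp (chr10:127642348-127642408): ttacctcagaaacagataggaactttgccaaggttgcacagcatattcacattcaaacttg
Stat6 summit at -375 bp (chr10:127642581-127642641): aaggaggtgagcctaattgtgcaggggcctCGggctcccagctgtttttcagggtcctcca
Stat6 summit at 640 bp (chr10:127643596-127643656): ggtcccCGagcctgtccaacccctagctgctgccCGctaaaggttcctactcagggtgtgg
Stat6 summit at 811 bp (chr10:127643767-127643827): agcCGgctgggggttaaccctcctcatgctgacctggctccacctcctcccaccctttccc
Stat6 summit at 1061 bp (chr10:127644017-127644077): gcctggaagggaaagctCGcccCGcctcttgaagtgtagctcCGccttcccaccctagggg

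The 3 broad regions at genes of the stem and progenitor lists belonged to Cebpa, Etv6 and Kit. Cebpa encodes a factor of myeloid differentiation, Etv6 an ETS family repressor needed by adult blood stem cells, and Kit the receptor for stem cell factor. Shown are the bases up to 50 bp on either side of the strongest summit whose window touched no annotated exon. This summit lay at -99 bp for Cebpa, -714 bp for Etv6 and 848 bp for Kit. The capitals again mark CpG dinucleotides, of which these windows held 6, 7 and 7.
Cebpa (chr7:35119144-35119244): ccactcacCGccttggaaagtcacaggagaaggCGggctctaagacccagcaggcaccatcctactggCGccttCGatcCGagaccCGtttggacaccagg
Etv6 (chr6:134034936-134035036): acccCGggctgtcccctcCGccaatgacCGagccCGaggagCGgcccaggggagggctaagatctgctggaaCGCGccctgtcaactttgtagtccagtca
Kit (chr5:75575753-75575853): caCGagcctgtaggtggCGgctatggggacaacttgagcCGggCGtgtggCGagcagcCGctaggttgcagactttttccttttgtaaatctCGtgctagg

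Next are the 5 members whose whole regions had the lowest GC content, 42.8% to 44.4%. Glipr1 encodes a secreted or membrane protein of the CAP family, Casp1 the protease that matures interleukin-1β, Chm a Rab escort protein, and Trim12a a TRIM family protein. Windows of the same kind held 3, 1, 3, 4 and 0 CpGs in the order shown. Their GC content was 46.5%, 56.4%, 47.5%, 59.4% and 50.5%, each above that of the whole region. At Casp1, Sh3bgrl and Chm the window was at a weaker summit (signal 6.96, 4.28 and 8.5 against 10.8, 16.2 and 13.9). Around their strongest summits GC content over 201 bp was 37.8%, 56.2% and 46.3%. For Casp1 this was below the 43.2% of its whole region. The window of Kit above, also at a weaker summit (5.98 against 8.39), had 57.4%, less than the window of Chm.
Glipr1 (chr10:111996630-111996730): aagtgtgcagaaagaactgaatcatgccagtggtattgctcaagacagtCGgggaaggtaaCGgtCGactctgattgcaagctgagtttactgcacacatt
Casp1 (chr9:5298339-5298439): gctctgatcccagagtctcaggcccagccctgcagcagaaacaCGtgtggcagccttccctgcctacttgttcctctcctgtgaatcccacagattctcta
Sh3bgrl (chrX:109095680-109095780): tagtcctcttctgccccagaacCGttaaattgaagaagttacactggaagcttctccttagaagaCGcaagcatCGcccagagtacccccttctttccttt
Chm (chrX:113185232-113185332): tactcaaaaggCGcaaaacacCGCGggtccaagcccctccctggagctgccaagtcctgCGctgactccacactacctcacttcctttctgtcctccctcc
Trim12a (chr7:104315503-104315603): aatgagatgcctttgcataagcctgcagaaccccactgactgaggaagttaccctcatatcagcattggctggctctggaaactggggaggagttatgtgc

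The last set carries a palindrome known as a site of the methyl-CpG binding factor ZBTB33 and frequent at housekeeping promoters. It stands in capitals in 4 members, at Casc4, Akap1 (an anchor of protein kinase A at mitochondria), Fam208b and Vdac3 (a channel of the mitochondrial outer membrane).
Casc4 (chr2:121866808-121866868): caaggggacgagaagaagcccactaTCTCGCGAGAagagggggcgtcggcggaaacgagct
Akap1 (chr11:88864750-88864810): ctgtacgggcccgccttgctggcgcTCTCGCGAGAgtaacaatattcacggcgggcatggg
Fam208b (chr13:3611248-3611308): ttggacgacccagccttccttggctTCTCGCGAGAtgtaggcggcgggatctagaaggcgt
Vdac3 (chr8:22593996-22594056): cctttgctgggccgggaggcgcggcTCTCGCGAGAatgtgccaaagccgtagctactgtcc

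Before the comparisons, the label was read against its markers. Of 20 stem and progenitor marker genes 14 (70.0%) had a promoter region, against 2 of 15 granulocyte and monocyte, 3 of 11 erythroid, 4 of 8 megakaryocyte, 2 of 8 B cell, 1 of 11 T and NK cell and 3 of 8 stroma and endothelium marker genes. Over all 21853 protein-coding genes 11258 (51.5%) had one. Read depth is unknown, since peak lists were used.

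The members formed the right tail of a single-peaked distribution. Their median width was 1334 bp (quartiles 1254 to 1468) and they covered 2095 kb, 21.9% of all promoter-region bases. Near the threshold stood 619 that measured 1200 to under 1300 bp. A further 734 measured 1300 to under 1600 bp, 158 at least 1600 bp and 17 at least 2000 bp, while 759 narrower regions measured 1100 to under 1200 bp. Just inside stood Sp1, Gnpda1 and Gxylt1 at 1200 bp, and just outside Kif20b, Leng8 and Mynn at 1199 bp. By chromosome the broad share of promoter regions ran from 10.5% on chromosome 19 to 18.5% on chromosome 1, and none of the 3 promoter regions on Y was broad.

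**Figure D1:**
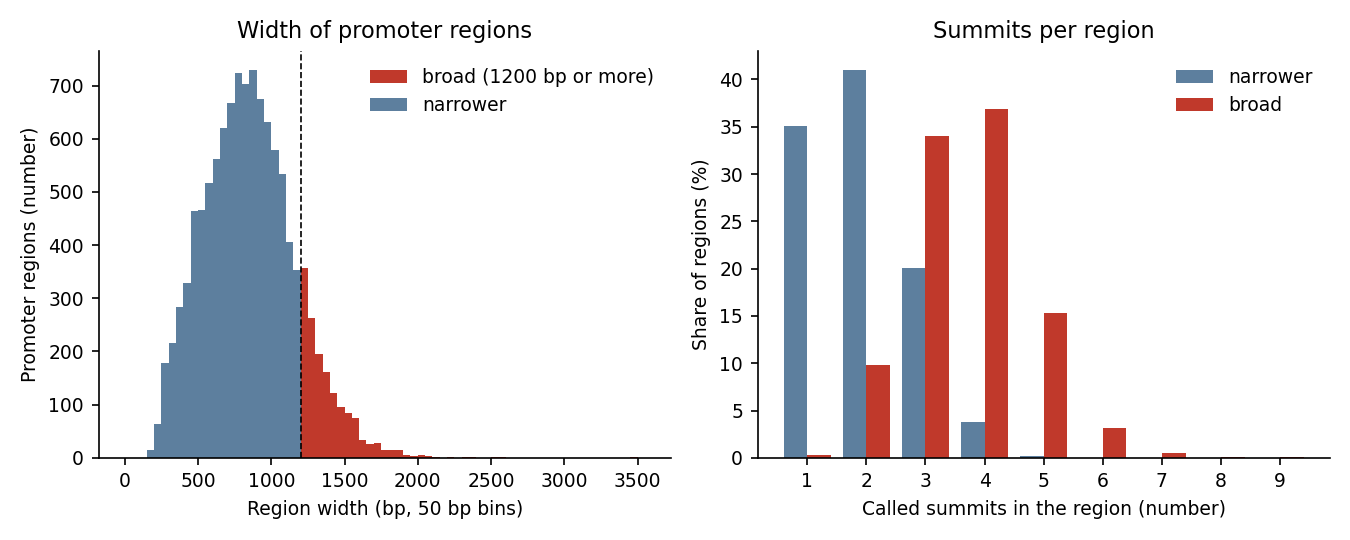
Left, number of promoter regions (y) by width in bins of 50 bp (x), with the 1200 bp threshold dashed. Right, share of regions (y, %) by number of called summits (x) for the 1511 broad and 9715 narrower regions. The threshold cuts a falling slope with no gap, and broad regions most often held 4 summits, narrower ones 2.

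The widest member, at 3460 bp with 7 summits, lay at Ppp2r3d (chr9:124422545-124426004), which encodes a regulatory subunit of protein phosphatase 2A. It reached 2421 bp upstream and 1038 bp downstream of the TSS nearest its summit. Tagln2 followed (chr1:172499719-172502286, 2568 bp, 8 summits), the gene of transgelin-2, an actin-binding protein. Crlf2, a receptor chain for thymic stromal lymphopoietin (chr5:109556613-109559138), had 2526 bp and 6 summits. Its extent downstream was -140 bp, so it ended before the TSS nearest the summit, which was 513 bp from that summit. Inside the region lay 2 other coding TSSs, 57 bp apart and further from the summit. Stat6 was next with 2352 bp (chr10:127641831-127644182). Gna13, a G protein α subunit, had 2303 bp and 6 summits. Ift80, of intraflagellar transport, shared 2213 bp with Smc4 of condensin on the other strand, over 7 summits. Gpc6, a glypican, had 2130 bp. Mllt10, a cofactor of histone methylation known from leukaemia fusions, had 2103 bp. Csf2ra, the α chain of the GM-CSF receptor (chr19:61225734-61227813), had 2080 bp, and Kctd12 had 2079 bp.

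These 10 were not the strongest promoters. Signal, the authors' value per peak, was 4.10 at Ppp2r3d, 4.81 at Tagln2, 3.70 at Crlf2, 4.31 at Gna13 and 5.19 at Gpc6, all below the lower quartile of the members, 7.64, as were Mllt10, Csf2ra and Kctd12. Stat6 (9.17) and Ift80 (9.42) lay near the members' median. Over all members the median was 9.39 (7.64 to 10.9) and over narrower regions 9.36 (7.10 to 11.7). By width, median signal was 6.08 under 400 bp, 8.67 from 400 bp, 10.4 from 800 bp, 9.54 from 1200 bp and 7.63 from 1600 bp upward. Within members, width and signal had a Spearman rho of -0.21 (n = 1511 regions of the same libraries), against 0.27 over all 11226 promoter regions.

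All 31532 regions consisted of 1 called interval: peaks that overlapped had the same start and end and differed only in their summit. Merging therefore joined no separate intervals, and the number of merged peaks is the number of summits inside an interval. Members held a median of 4 summits and narrower regions 2. At least 3 summits were found in 89.9% of members (88.3 to 91.4, 95% Wilson interval) and 23.9% (23.1 to 24.8) of narrower regions, and at least 4 in 55.9% and 3.9%. All intervals given here cover counting error over regions, not differences between libraries or animals. The count followed length: there were 2.66 summits per kb in members and 2.51 in narrower regions. With the peaks above the median signal of the list only, both groups had a median of 1 summit.

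A single summit was found in 4 members, at Usp1 (1379 bp), Leprot (1311 bp), Garem1 (1222 bp) and Calu (1214 bp), named here after their values were seen. Neighbouring summits within a member were a median of 318 bp apart (254 to 424, n = 4066) and in narrower regions 295 bp (251 to 374, n = 9025). In both groups the fullest 50 bp bin of these distances was 250 to 300 bp, with 19.7% of distances in members and 27.8% in narrower regions. The weakest summit of a member had a median of 0.303 times the signal of its strongest (0.227 to 0.410, n = 1507).

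Stat6 shows such a chain in full. From upstream to downstream its summits lay at -1038, -801, -608, -375, -30, 239, 640, 811 and 1061 bp from the TSS. Their signals were 4.09, 2.68, 2.36, 3.23, 9.17, 2.45, 2.18, 2.59 and 4.19 in that order. The maximum stood at the TSS, and the next highest values were at the far ends of the region. GC content of the 201 bp around each summit ran from 46.8% at -608 bp to 61.2% at -30 bp.

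Around the TSS, members extended further in both directions, and more so into the gene. The 1229 members with a TSS inside and TSSs on 1 strand reached a median of 576 bp upstream (409 to 774) and 785 bp downstream (596 to 963). The 7872 such narrower regions reached 361 bp (249 to 484) and 395 bp (247 to 547). The downstream arm was the longer in 65.6% of these members (62.9 to 68.2) and in 54.2% (53.1 to 55.3) of narrower regions. Among narrower regions of 800 bp or more it was the longer in 61.2% (59.7 to 62.8), with medians of 430 bp upstream and 526 bp downstream. Under 400 bp the share was 25.1%. Summits at least 500 bp downstream of the TSS made up 24.0% of 4529 summits in members and 5.5% of 15504 in narrower regions, and those more than 500 bp upstream 12.1% and 3.53%. The 200 bp before the TSS held 20.5% and 38.0%. Exons covered a median of 33.3% of a member and 32.9% of a narrower region.

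**Figure D2:**
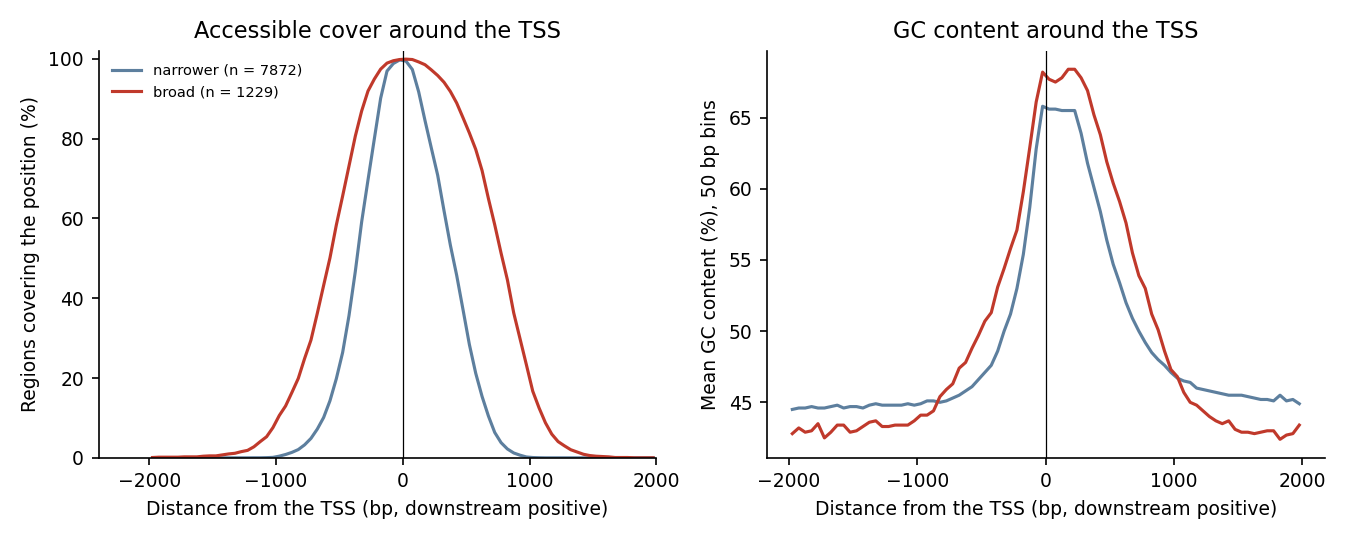
Share of regions that cover each position (left, y, %) and mean GC content in 50 bp bins (right, y, %) by distance from the TSS nearest the summit (x, bp, downstream positive), for regions with TSSs on 1 strand. Members cover more on both sides, most clearly downstream, and their GC plateau beyond the TSS is higher and longer, while beyond about 1000 bp it falls under that of narrower regions.

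GC content of the whole region hardly separated the classes. Its median was 61.1% (57.9 to 64.2) in members and 60.4% (56.1 to 64.4) in narrower regions, a difference of 0.676 percentage points (0.373 to 0.969, from the intervals of both medians). In replicate 1's own peak list the difference had the other sign, -0.227 (-0.605 to 0.149), and in replicate 2's it was 0.839. In 4 classes of signal with equal numbers of promoter regions, from the weakest, it was 1.85, 0.556, -0.58 and -0.0205 percentage points.

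Equal windows gave a larger difference than whole regions. Within 500 bp of the summit members had a median GC content of 61.0% and narrower regions 57.6%, 3.40 percentage points apart (2.95 to 3.84). Around the TSS nearest the summit the same window gave 62.1% and 58.4%. Within 100 bp of the summit, where both kinds of region are accessible, the medians were 65.7% and 63.7%. The longer windows take in DNA outside the accessible interval of narrower regions, whose median width was 782 bp.

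The ratio of observed to expected CpGs was 0.753 in members and 0.722 in narrower regions, 0.0308 apart (0.0222 to 0.0396). In the strongest of these signal classes the difference was -0.00613. A summit in a CpG-rich stretch (windows of 200 bp with at least 50% GC and a ratio of at least 0.6) was found in 85.6% of members (83.7 to 87.3) and 72.6% (71.7 to 73.5) of narrower regions. It was found in 82.2% (81.1 to 83.3) of the narrower regions of 800 bp or more. Where there was a stretch, its median length was 900 bp in members (650 to 1150, n = 1293) and 750 bp in narrower regions (550 to 1000, n = 7056). Repeats covered medians of 5.45% and 5.32%.

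**Figure D3:**
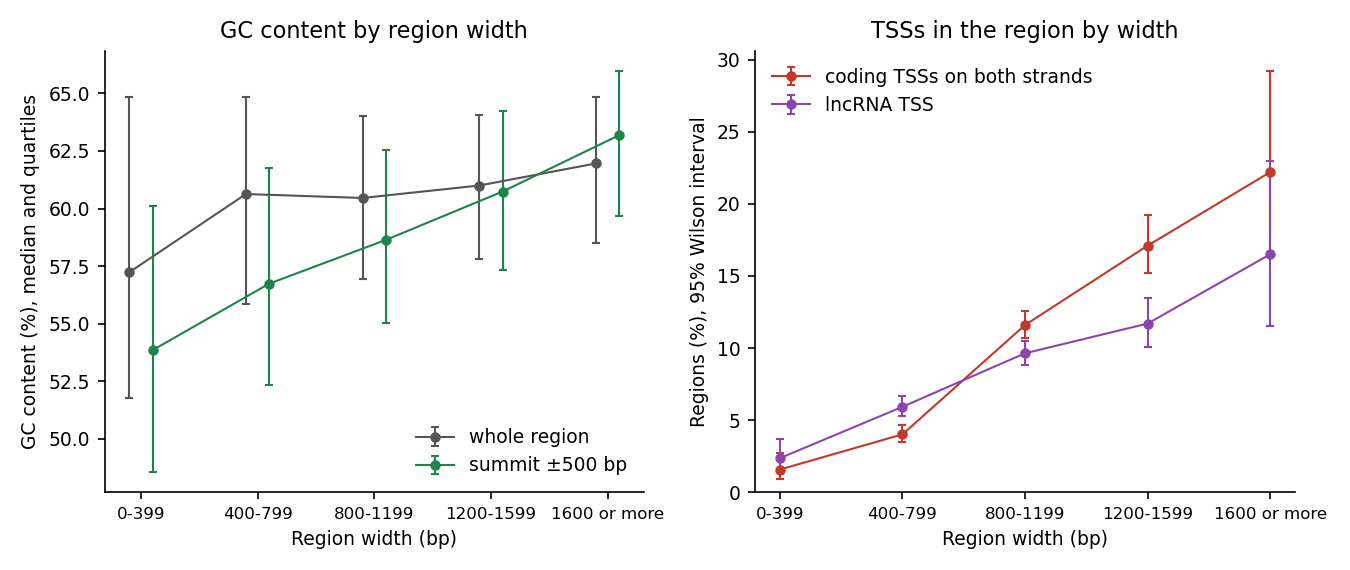
Left, median GC content with quartiles (y, %) of the whole region and of the 500 bp on each side of the summit by width class (x). Right, share of regions (y, %, 95% Wilson interval) with coding TSSs on both strands or with a TSS of a long noncoding RNA (lncRNA) inside. Whole-region GC is nearly flat above 400 bp, while the equal window and both shares rise with each class.

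Few members were poor in GC: 29 (1.92%) had under 50%, against 6.47% of narrower regions. The 5 lowest were Glipr1 at 42.8% (chr10:111995890-111997371), Casp1 at 43.2% (chr9:5298076-5299277), Sh3bgrl and Chm at 44.0%, both on X, and Trim12a at 44.4% (chr7:104314655-104316040). Their signal ran from 5.08 at Glipr1 to 16.2 at Sh3bgrl, and each had 3 or 4 summits. Part of the Trim12a region matched 2 other places in the genome at 90% identity or more over 50% of its length, so its reads may be shared. This held for 20 members (1.32%) and for 240 narrower regions (2.47%). Hspa1a and Hspa1b, neighbouring genes of the inducible heat shock protein Hsp70, were among these members.

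Coding TSSs on both strands were found inside 267 members, 17.7% (15.8 to 19.7), and 7.44% (6.94 to 7.98) of narrower regions, a difference of 10.2 percentage points (8.31 to 12.3). A longer region spans more annotation, so the count was repeated in equal windows, an alternative added after the data were seen. Within 500 bp of the summit the shares were 15.2% (13.4 to 17.1) and 7.55% (7.04 to 8.09), with 11.3% (10.5 to 12.3) in the narrower regions of 800 bp or more. In the signal classes the difference inside regions was 4.41, 10.8, 12.5 and 10.4 percentage points, and in each replicate's own list it was 13.5 (replicate 1) and 11.7 (replicate 2).

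A lncRNA started inside 12.2% of members (10.6 to 13.9) and 7.41% of narrower regions, but in the equal window the shares were 8.93% (7.60 to 10.5) and 7.60% (7.09 to 8.14), and 9.24% in the narrower regions of 800 bp or more. Several coding TSSs inside were found in 67.9% and 49.5%, and in the equal window in 59.8% and 51.6%. In that window the narrower regions of 800 bp or more had 59.9%. Where a region held several, they spanned a median of 265 bp in members and 93 bp in narrower regions. Such a span cannot exceed the region's width, by which members were chosen. It rose with each width class, from 40.5 bp under 400 bp to 488 bp from 1600 bp upward. No coding TSS lay inside 12 members, among them Atp13a3 (1944 bp), Ptger2 (1729 bp, a prostaglandin E2 receptor) and Ifngr2 (1266 bp, a chain of the interferon-γ receptor).

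At least 3 coding genes had a TSS inside 9 members (0.596%), against 0.216% of narrower regions. The widest was Sept2 with Hdlbp (1825 bp, 13 TSSs, 3 gene entries, of which 2 are named Sept2). Next came Rundc1 with Ptges3l and Gm27029 (1554 bp), Rnf170 with Hook3 and Gm45692 (1473 bp), Utp4 with Chtf8 (1422 bp, 2 entries of that name) and Zfp524 with Fiz1 and Gm44973 (1388 bp). In each of these 5, TSSs lay on both strands.

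Over all genes with a promoter region 1795 of 11258 (15.9%) had a broad one, which is 8.21% of all protein-coding genes. Gene classes are read against the 15.9%, with no test. Among lists with at least 10 accessible genes, the interval left out 15.9% for 2: splicing genes above it and interferon-stimulated genes below it. Many lists were read at once, and the intervals are not adjusted for this. Of 29 lists, 10 had no broad region, most of them lists with few accessible promoters.

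Splicing genes had broad regions most often: 16 of 50 (32.0%, 20.8 to 45.8). They included the SR proteins Srsf2, Srsf3, Srsf4, Srsf5 and Srsf7, their relatives Tra2a and Tra2b, Snrpb of the core snRNPs, and the RNA-binding Hnrnpa1 (1740 bp), Hnrnpa2b1, Hnrnpk, Hnrnpu, Hnrnpul1, Hnrnpul2, Hnrnph1 and Hnrnpm. In 6 of the 16 the region also started a gene on the other strand. Hnrnpa1 was paired with Cbx5 and Hnrnpa2b1 with Cbx3, which both encode heterochromatin protein 1, and the Hnrnpa2b1 and Cbx3 promoter is known as a ubiquitous chromatin opening element. Of the 50 genes 26.0% had TSSs on both strands in their region, against 17.2% of all genes with a region. The share depended on the library: 24.0% (12 of 50, 14.3 to 37.4) in replicate 1's own list and 14.3% (7 of 49, 7.1 to 26.7) in replicate 2's, where all genes gave 10.5% and 4.8%.

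Genes named for translation initiation and elongation factors had broad regions in 14 of 63 cases (22.2%, 13.7 to 33.9), which included Eif4g2 (1590 bp), the helicase genes Eif4a1 and Eif4a2 (1588 bp each) and Eef1a1 (1559 bp), the elongation factor that brings tRNA to the ribosome. The 14 also hold Eef1akmt3 and Eef2k, which encode a methyltransferase and a kinase that act on elongation factors. In replicate 2's own list the share was 5.17% (3 of 58), near the 4.8% of all genes, and in replicate 1's 12.3% (8 of 65). Further gene classes of protein synthesis and turnover had shares whose intervals hold 15.9% and overlap that of the factors: 7 of 79 cytosolic ribosomal protein genes (8.86%, 4.36 to 17.2), 2 of 33 tRNA synthetase genes (6.06%, 1.68 to 19.6; Kars and Dars) and 3 of 46 proteasome genes (6.52%, 2.24 to 17.5). Rps29 at 1552 bp, Rpl10 at 1513 bp and Rpl7 at 1448 bp were the widest of the ribosomal protein genes. The accessible share of these genes was high, 96.3% for ribosomal proteins and 97.1% for synthetases.

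Mitochondrial genes were near the background, with 12 of 75 mitochondrial ribosomal protein genes (16.0%, 9.40 to 25.9) and 8 of 75 oxidative phosphorylation genes (10.7%, 5.50 to 19.7). Most of their broad regions were shared with a gene on the other strand, 9 of 12 and 6 of 8. Such promoters were frequent in these lists as a whole, at 41.3% and 33.3% of the genes with a region against 17.2% of all. Mrpl47 and Ndufb5 shared 1425 bp, so 1 region counts in both lists. Atp5j, of the ATP synthase, shared 2004 bp with Gabpa, and Mrpl41 shared 1661 bp with Pnpla7. Of all 1795 genes with a broad region 539 shared it in this way.

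Inducible genes were broad in 10 of 44 cases (22.7%, 12.8 to 37.0). In replicate 1's own list 6 of 42 were (14.3%), and in replicate 2's 1 of 36 (2.78%, where all genes gave 4.8%). They were Zfp36l2 (1819 bp), Jun (1552 bp), Rhob (1523 bp), Gadd45b, Hspa1a, Atf3, Hspa1b, Dusp5, Nr4a2 and Dnajb1. Zfp36l2, an RNA-binding protein that promotes mRNA decay, had the weakest signal of all members, 3.56. Of 61 chromatin regulators 11 were broad (11.1% and 3.57% in the own lists of replicates 1 and 2), with Kmt2c (1634 bp), Asxl2 (1538 bp) and Wapl (1505 bp) the widest. Of 36 cell cycle genes 6 were (16.7%), with Wee1 at 1948 bp and 6 summits, and Mcm4, divergent with Prkdc, at 1439 bp. Klf and Sp factors gave 4 of 17 (23.5%, 9.56 to 47.3): Sp4 (1801 bp), Klf13, Klf8 and Sp1. Zinc finger genes gave 50 of 301 (16.6%), solute carriers 30 of 195 (15.4%) and ubiquitin enzymes 12 of 75 (16.0%), all near the background.

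**Figure D4:**
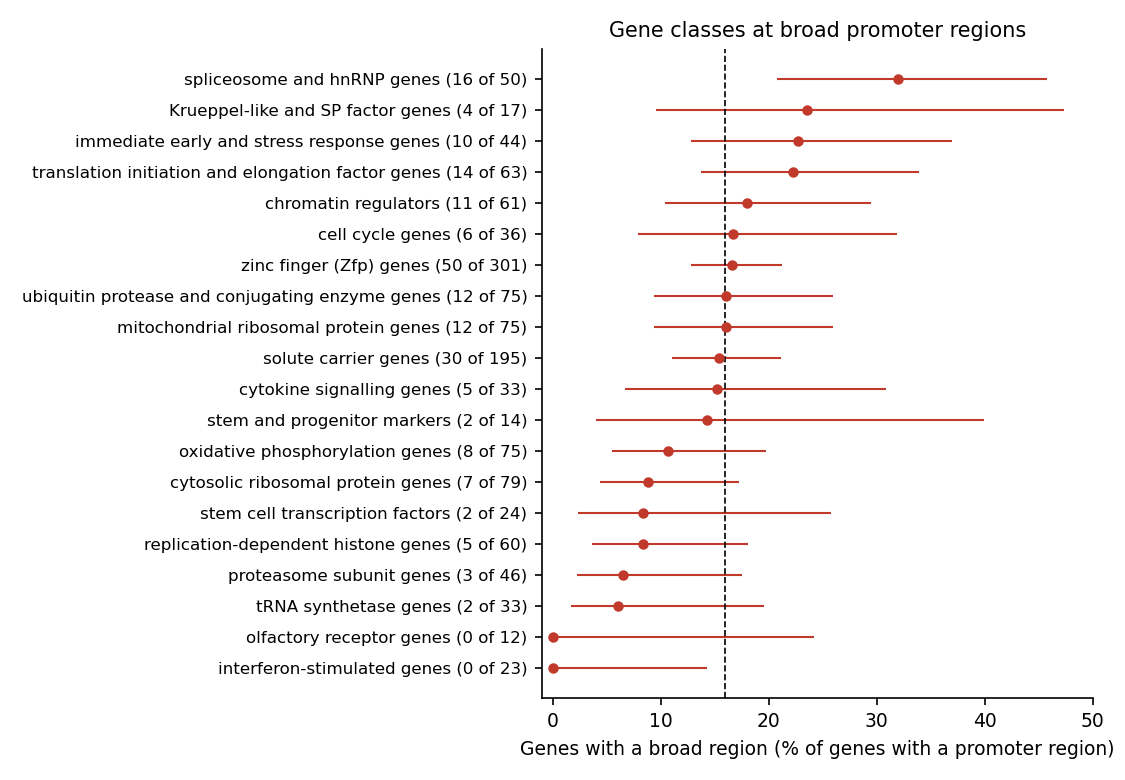
Share of genes with a broad region among those with a promoter region (x, %, 95% Wilson interval) for lists with at least 10 such genes (y, counts in brackets), with the 15.9% of all genes dashed. The interval of the splicing genes (20.8 to 45.8) lies above the line, and that of the interferon-stimulated genes (0 to 14.3) below it.

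Few genes that define blood lineages were broad, in lists too short to set them apart from the 15.9%. Of 24 accessible stem cell transcription factor genes 2 were (8.33%, 2.32 to 25.8): Etv6 at 1475 bp (chr6:134034814-134036288, 5 summits) and Cebpa at 1410 bp (chr7:35118019-35119428, 4 summits). The next were Myb at 1095 bp, Spi1 (PU.1) at 1084 bp, Zfpm1 at 1074 bp and Tal1 at 1039 bp. Myc had 940 bp, Lmo2 932 bp and Gfi1 902 bp. Ldb1 had 815 bp and Cbfb 796 bp. Lyl1, Nfe2 and Hhex lay between 731 and 747 bp, Erg had 690 bp, Meis1 651 bp, Runx1 572 bp and Hlf 555 bp. Gata3 had 494 bp, Hoxa9 488 bp and Mycn 466 bp. Gfi1b at 396 bp and Ikzf1 at 370 bp were the narrowest of the list. The signal of Etv6, the widest, was 5.97, below the lower quartile of the members.

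Cytokine signalling genes were broad in 5 of 33 cases (15.2%, 6.65 to 30.9), Stat6, Csf2ra, Kit (1368 bp), Cblb and Ifngr2. Of lineage markers other than those of stem cells, Pf4 of platelets was broad (1244 bp, chr5:90771853-90773096). None was among the accessible granulocyte and monocyte (2), erythroid (3), B cell (2), T and NK cell (1), and stroma and endothelium (3) marker genes. Interferon-stimulated genes had 0 of 23 (upper Wilson limit 14.3%), although Irf1 reached 1169 bp and Oasl2 1162 bp. At a threshold of 1000 bp their share was 26.1%, against 35% of all genes with a promoter region. Developmental factors of other tissues and Hox genes had 0 of 6 each, and olfactory receptor genes 0 of 12. Replication-dependent histone genes, whose accessible regions had a median of 466 bp, had 5 of 60 (8.33%). Hist1h2be and Hist1h1e shared 2003 bp, and Hist1h1c had 1556 bp.

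Sequence words at the strongest summit were counted on both strands in equal windows of 201 bp. The GC box GGGCGG of the SP and KLF factors was present in 66.2% of members (63.8 to 68.5) and 58.3% (57.4 to 59.3) of narrower regions, with 59.4% over all promoter regions and 40.6% over the 5′-most TSSs of all coding genes. The ZBTB33 palindrome was in 32 members, 2.12% (1.5 to 2.97), and 0.823% (0.662 to 1.02) of narrower regions, with 0.998% and 0.508% in the 2 backgrounds. In the replicates' own lists the GC box difference was 6.75 percentage points (replicate 1) and 4.19 (-0.815 to 8.95, replicate 2), against 7.84 here. That of the palindrome was 0.569 (-0.0633 to 1.56) and 1.62, against 1.29. By width the palindrome was in 0 of 758 regions under 400 bp, and then in 0.506%, 1.26%, 2.14% and 1.90%. Its interval in regions of 800 to 1199 bp (0.975 to 1.62) overlaps that of members. The GC box was in 63.5% (62.1 to 64.9) of regions of 800 to 1199 bp, an interval that overlaps that of members.

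The NRF1 palindrome was in 9.07% of members (7.72 to 10.6) and 7.26% of narrower regions (7.5% and 5.31% in the backgrounds), and the cyclic AMP response element TGACGTCA in 4.43% (3.51 to 5.59) and 3.26% (3.42% and 2.04%). Neither order held in each alternative. In replicate 2's own list the NRF1 difference was -0.707 percentage points, and at a threshold of 1500 bp that of TGACGTCA was -0.274. Regions of 800 to 1199 bp held the NRF1 palindrome in 9.14% (8.34 to 10) and TGACGTCA in 3.71% (3.2 to 4.3). Both intervals overlap those of members. Shares of the ETS word CCGGAAG (16.2% and 16.0%), CCAAT of NFY (34.6% and 33.8%), AAGATGGC of YY1 (4.04% and 3.81%) and CACGTG, the E-box (8.67% and 8.41%), differed by under 1 percentage point here, with 16.1%, 33.9%, 3.84% and 8.44% over all promoter regions. These differences moved with the list: from -4.22 in replicate 2's own to 4.7 in the pseudoreplicated list of both libraries for ETS, and from -2.68 to 5.84 for CCAAT. Regions of 800 to 1199 bp held the ETS word more often than members, in 19.7% (18.6 to 20.9).

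Words of the blood factors RUNX and of AP-1 had lower shares at the summits of members than in narrower regions as a whole, with intervals that do not overlap. Against regions of 800 to 1199 bp the intervals overlapped, with RUNX in 8.53% (7.76 to 9.37) and AP-1 in 2.86% (2.42 to 3.39) there. TGTGGT of RUNX was in 7.48% (6.26 to 8.92) of members, 10.2% (9.61 to 10.8) of narrower regions and 9.83% of all, and TGANTCA of AP-1 in 1.72% (1.18 to 2.51), 3.54% (3.19 to 3.93) and 3.30%. The AP-1 difference of -1.82 percentage points was -1.12 (-1.98 to 0.0678) in replicate 1's own list and -0.897 (-2.05 to 1.15) in replicate 2's, and that of RUNX -2.52 and -4.16, against -2.72. For AGATAA of GATA the shares were 2.05%, 2.68% and 2.59%, and for GAGGAAGT of PU.1 2.71%, 3.37% and 3.28%, with overlapping intervals. TATAAA was in 2.25%, 2.75% and 2.68%, and the GFY word in 0.662%, 0.690% and 0.686%. A word is a match of letters and not a bound site, and GC-rich windows hold GC-rich words more often. The part of base composition in these shares was not tested.

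Within members the strongest summit and the others differed in composition. Around the 1507 strongest summits of members with several, median GC was 65.7% (60.7 to 69.7), around the 4066 others 60.7% (52.7 to 68.2), and around the 1944 of these at least 500 bp from the TSS 56.7% (49.8 to 64.2). In that order the GC box was in 66.2%, 35.8% and 26.4% of windows, NRF1 in 9.09%, 2.71% and 1.03%, ETS in 16.2%, 6.25% and 5.04%, and the ZBTB33 word in 2.12%, 0.123% and 0.0514%. The shares ran the other way for GATA at 2.06%, 4.06% and 5.04%, RUNX at 7.5%, 9.59% and 11.8%, and AP-1 at 1.73%, 3.62% and 4.89%. Narrower regions showed the same order for these 7 words with 0 of 1854 far summits holding that of ZBTB33: GATA was at 2.16%, 4.41% and 6.96%, and RUNX at 9.16%, 9.86% and 13.2%. For RUNX the intervals of strongest and other summits overlapped in both groups (6.27 to 8.94 and 8.72 to 10.5 in members). In narrower regions those of AP-1 overlapped too. PU.1 followed neither order, at 2.72%, 1.92% and 2.47% in members and 2.65%, 2.12% and 2.86% in narrower regions.

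Each library was then read on its own, though both had entered the list that chose the members. Replicate 1's own list overlapped 1481 members (98.0%) by at least 1 base and replicate 2's 1381 (91.4%), with 93.6% and 82.6% over all promoter regions. The width of 1200 bp was reached less often: by 843 members (55.8%) in replicate 1 and 360 (23.8%) in replicate 2, against 8.64% and 3.5% of all promoter regions. It was reached in both by 239 (15.8%, with 2.13% over all), in replicate 1 only by 604, in replicate 2 only by 121, and in neither by 547 (36.2%).

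Where a member was called in both, its width in replicate 2 was a median of 0.854 times that in replicate 1 (0.651 to 0.998, n = 1373). Median widths were 1225 bp and 974 bp, with members not called counted as 0. Width in the libraries had a Spearman rho of 0.64 over 9027 promoter regions and 0.20 over the 1373 members, whose range of width the rule had cut. The pseudoreplicated list from both libraries gave all 1511 members the same width and number of summits. Of all 11226 promoter regions 11208 had the same width there. The promoter intervals of the conservative list thus recurred there almost unchanged, and this match is no separate measure of width. The reverse was not counted. The lists as a whole differed, since the GC box difference was 17 percentage points in the pseudoreplicated list, against 7.84.

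**Figure D5:**
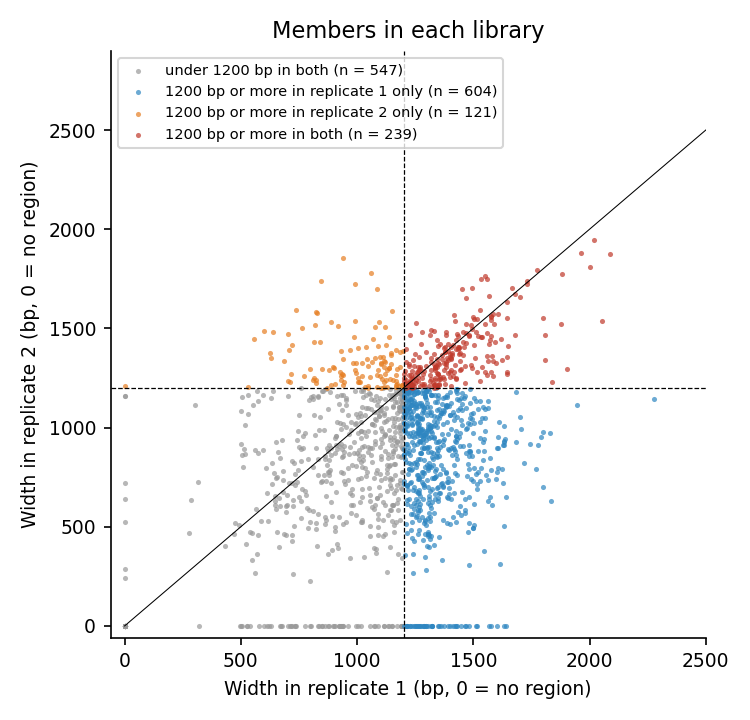
Width of each member in replicate 1's own list (x, bp) and in replicate 2's (y, bp), 0 where no region was called, with 1200 bp dashed and equality as a line. The 604 members at least 1200 bp wide in replicate 1 only outnumber the 121 in replicate 2 only, and 239 pass in both.

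Members that passed 1200 bp in both libraries had a median width of 1437 bp and those that passed in neither 1283 bp. Their median signals were 8.52 and 9.20, and TSSs on both strands were found in 25.1% and 12.4%. The widest by the smaller of the library widths was Nfe2l2 (2015 bp, with 2019 bp in replicate 1 and 1945 bp in replicate 2), the gene of the oxidative stress factor NRF2. After it came Ddx5 with Cep95 (1962 and 1881 bp), an RNA helicase, Csf2ra (2090 and 1877 bp), Hist1h2be with Hist1h1e (2003 and 1811 bp) and Slc30a7 with Extl2 (1880 and 1775 bp). Sp4 had 1772 and 1795 bp, Ppp4r3b 1730 and 1739 bp, Hnrnpa1 1730 and 1722 bp, Mboat7 1680 and 1676 bp and Cdkn2aip 1665 and 1702 bp. These 10 were ranked after the values were seen.

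Several of the widest members had no region in replicate 2's own list. In replicate 1's, Tagln2 had 1400 bp, Gna13 1576 bp, Gpc6 1482 bp, Stk24 322 bp and Spata1 1511 bp. In replicate 2's pseudoreplicated list, which is longer, they had 1479, 1111, 670, 1133 and 887 bp, so accessible DNA was called at all 5 there, and Tagln2 and Stk24 were wider than in replicate 1's own list. Ppp2r3d had 2276 bp in replicate 1 and 1145 bp in replicate 2, and Stat6 1631 bp and 927 bp. Crlf2, with 1482 and 1466 bp, was alike in both, though neither library alone gave the 2526 bp of the joint list.

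The lowest ratios of replicate 2 to replicate 1 were at Btf3l4 (1615 and 313 bp), Tacc2 (1483 and 308 bp), Tab1 (1240 and 266 bp), Suclg2 (1295 and 284 bp) and Kdelr1 (1127 and 274 bp). The highest were at Txndc5 (302 and 1112 bp), Ift140 (556 and 1449 bp), Gab1 (598 and 1485 bp), Pdk1 (639 and 1481 bp) and Slc10a7 (316 and 725 bp). Of the genes with sequences above, Etv6 was broad in both libraries (1502 and 1416 bp), Kit in replicate 1 (1313 and 679 bp) and Cebpa in neither (1120 and 465 bp).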

How the data were processed

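Haematopoietic stem cells of 1 group, in 2 libraries, were profiled by ATAC-seq. The authors deposited peak lists, which the labels place on mm10. Names of aligner, peak caller and handling of the insertion offset were "not given in the sources used here". Each peak's signal is the deposited value, whose control and scaling are not stated, and its other deposited value used here is the summit's offset from the start. Depth is unknown because the files list peaks.

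Members, gene lists, words and comparisons were chosen with earlier results of these data known. Peaks sharing at least 1 base were merged. Genes came from GENCODE M21, sequence from GRCm38.p6. Of the symbols listed, Mx2 and Tbxt had no match. Regions are not replicates, so groups were described by medians with quartiles, shares with 95% Wilson intervals and differences of medians with intervals from order statistics, with no test. Near-identical copies were found with blastn 2.17.0 (90% identity over 50% of the length, e-value 1e-10). Scripts ran in Python 3.11.15 with numpy 2.4.6 and pandas 2.3.3 and were tested on simulated peaks. The 14 words are those the report prints.

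Genes were named by rule: the 10 widest members, the 5 with most summits, 3 on each side of the threshold, the 3 widest per list, up to 5 with 3 or more genes, the 5 of lowest GC content, the 5 lowest and highest width ratios between replicates, the 5 widest missing from replicate 2 and the accessible stem cell factors, of which 1 is not reported here. Any further gene was picked with its values known. Alternatives were other lists, each replicate's own list, thresholds of 1000 and 1500 bp, TSS windows of 500 and 2500 bp, the 5′-most TSS, stronger peaks, looser merging, equal windows and 4 classes of signal.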

Additional observations from a re-analysis of the deposited data

How the results depend on the processing

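Number of members. It was 1579 to 1620 in the other lists of both libraries, 390 to 984 with either replicate left out, 3382 at 1000 bp and 317 at 1500 bp. GC content. The difference between broad and narrower regions was -0.227 to 0.839 percentage points with either replicate left out, the negative value without replicate 2. It was 1.38 at 1500 bp, 1.39 with summits within 2500 bp, 0.36 with the 5′-most TSS, 1.99, 3.4 and 3.7 in equal windows of summit ±100 bp, summit ±500 bp and TSS ±500 bp, and 1.85, -0.58 and -0.0205 in the signal classes 1, 3 and 4. CpG ratio. The difference was 0.0198 to 0.0204 with either replicate left out. It was 0.0406 in the IDR thresholded, 0.0603 in the replicated and 0.0687 in the pseudoreplicated list, 0.0424 at 1500 bp, 0.0219 and 0.0519 with summits within 500 and 2500 bp, 0.0215 with the 5′-most TSS, and 0.0737, 0.0465, 0.00539 and -0.00613 in the signal classes. Summits. The difference of medians was 2, and 1 at 1000 bp, 3 at 1500 bp and 0 with peaks above the median signal. TSSs on both strands. The difference was 11.7 to 13.5 percentage points with either replicate left out, 4.41 and 12.5 in classes 1 and 3, and 7.61 in the equal window, and it had the same sign in all 18 alternatives. Overlap. With 50% of a member covered, 94.0% were found in replicate 1 and 78.1% in replicate 2. Words. The difference was -0.707 to 1.12 for NRF1 with either replicate left out, negative without replicate 1, and -0.274 for TGACGTCA at 1500 bp. The cause of these changes was not tested. No paired analysis was possible because the series has 1 group and no comparison between groups. The lists used here give no reads, so whether depth limits a width in either library was not tested.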

Other observations

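No distal accessible region lay within 50 kb of the summit in 31.3% of members (29.0 to 33.7) and 27.0% (26.1 to 27.9) of narrower regions. Regions of 800 to 1199 bp also had 31.3%, and members of at least 1600 bp 25.3% (19.2 to 32.6). Genes of members had a median length of 30290 bp, against 25410 bp at narrower regions and 25970 bp at those of 800 to 1199 bp. Genes that host small nucleolar RNAs made up 2.45% (1.78 to 3.36) of members and 1.75% (1.51 to 2.03) of narrower regions, with overlapping intervals and 1.84% over all promoter regions.

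Among the 10 widest members, at least Crlf2 and Csf2ra have human counterparts in the pseudoautosomal region of the sex chromosomes. In mice these 2 genes lie on chromosomes 5 and 19. The rest of the 10 were not checked for this. Crlf2 had a GC content of 56.6% and Csf2ra one of 66.5%, and both had 2 distal regions within 50 kb. This was noticed after the values were seen, and no list of such genes was compared.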
